A study of Homo sapiens with 8 samples.

Results

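Transcripts of 9 genes of glutathione and cysteine metabolism were examined in MOLM-13 cells treated with the immunoproteasome inhibitor PR-957 (also called ONX-0914) or with its diluent. The genes were chosen by name from the count table, in which all 9 were present among 38551 gene rows with values, and all 9 were among the 13179 genes that had enough counts to be tested. They were grouped by role into breakdown and cysteine supply (CHAC1, CHAC2 and CTH), synthesis (GCLC, GCLM and GSS) and recycling and use (GSR, GPX1 and GPX4). MOLM-13 is a human leukemia line of the acute myeloid type with a KMT2A fusion, and no other genotype or line was part of the comparison. Cells of 4 libraries had received 100 nM PR-957 and cells of the other 4 had received DMSO, both for 72 h. The labels do not say whether libraries came from separate cultures, so p-values measure the spread between these libraries, which may be technical.

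Glutathione is the main small thiol of the cell and is built from glutamate, cysteine and glycine. Glutamate-cysteine ligase, made of the catalytic subunit GCLC and the modifier subunit GCLM, joins glutamate to cysteine, and glutathione synthetase (GSS) adds glycine. Glutathione peroxidases such as GPX1 and GPX4 oxidize glutathione while reducing peroxides, and glutathione reductase (GSR) returns it to the reduced form with NADPH. CHAC1 and CHAC2 cleave glutathione inside the cell, CHAC1 being the stress-induced and CHAC2 the constitutive enzyme. CTH (cystathionine gamma-lyase) releases cysteine in the last step of transsulfuration, the route from methionine to cysteine.

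The 4 DMSO libraries held 16675036 to 23111223 counts each and the 4 PR-957 libraries 16996835 to 21151092. Values are given as CPM, which are counts brought to a common library total after scaling with TMM factors. A count of 0 allows up to 3 counts, which is at most 0.188 CPM in any library and covers counting error only. All 11 markers of acute myeloid leukemia and myeloid cells had counts, summing to 1690 to 1770 CPM per control library and 2380 to 2620 CPM per treated library. LYZ and MPO, genes of myeloid granules, carried the increase, from means of 153 to 820 CPM and 175 to 506 CPM, and SPI1 was also called higher. FLT3, PTPRC, HOXA9 and MEIS1 of the same list were called lower, at log2 fold changes of -0.98, -0.66, -0.61 and -0.34, and the part of these shifts in the results was not tested. CD14 was near 0, with mean levels of 0.125 CPM in control and 0.279 CPM in treated libraries. The 4 T cell markers summed to at most 0.655 CPM in any library, with CD3E and CD3G at 0 counts throughout. B cell, erythroid and fibroblast markers summed to at most 1.6, 0.868 and 2.66 CPM in any library, and epithelial markers to between 28.8 and 53.0 CPM, nearly all of it KRT8 and KRT18. Mitochondrially encoded genes took 1.94% to 2.75% of the counts of control libraries and 4.15% to 5.24% of those of treated libraries, and the part of this shift in the results was not tested.

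Of the 9 genes, 3 were higher and 3 lower in PR-957 than in DMSO libraries by the quasi-likelihood test of edgeR, with 0.05 as the limit on adjusted p. Among all genes tested 46.6% were called, 23.1% higher and 23.5% lower. CHAC1 and CTH fell far more than any other member, by 11.7-fold and 6.98-fold. CHAC2, GCLM and GSR rose by 1.44-fold, 1.38-fold and 1.14-fold, and GSS fell to 0.830 of its level in DMSO. GCLC, GPX1 and GPX4 did not pass the threshold. The median log2 fold change of the 9 genes was 0.10, beside 0.003 over all genes tested.

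**Figure D1:**
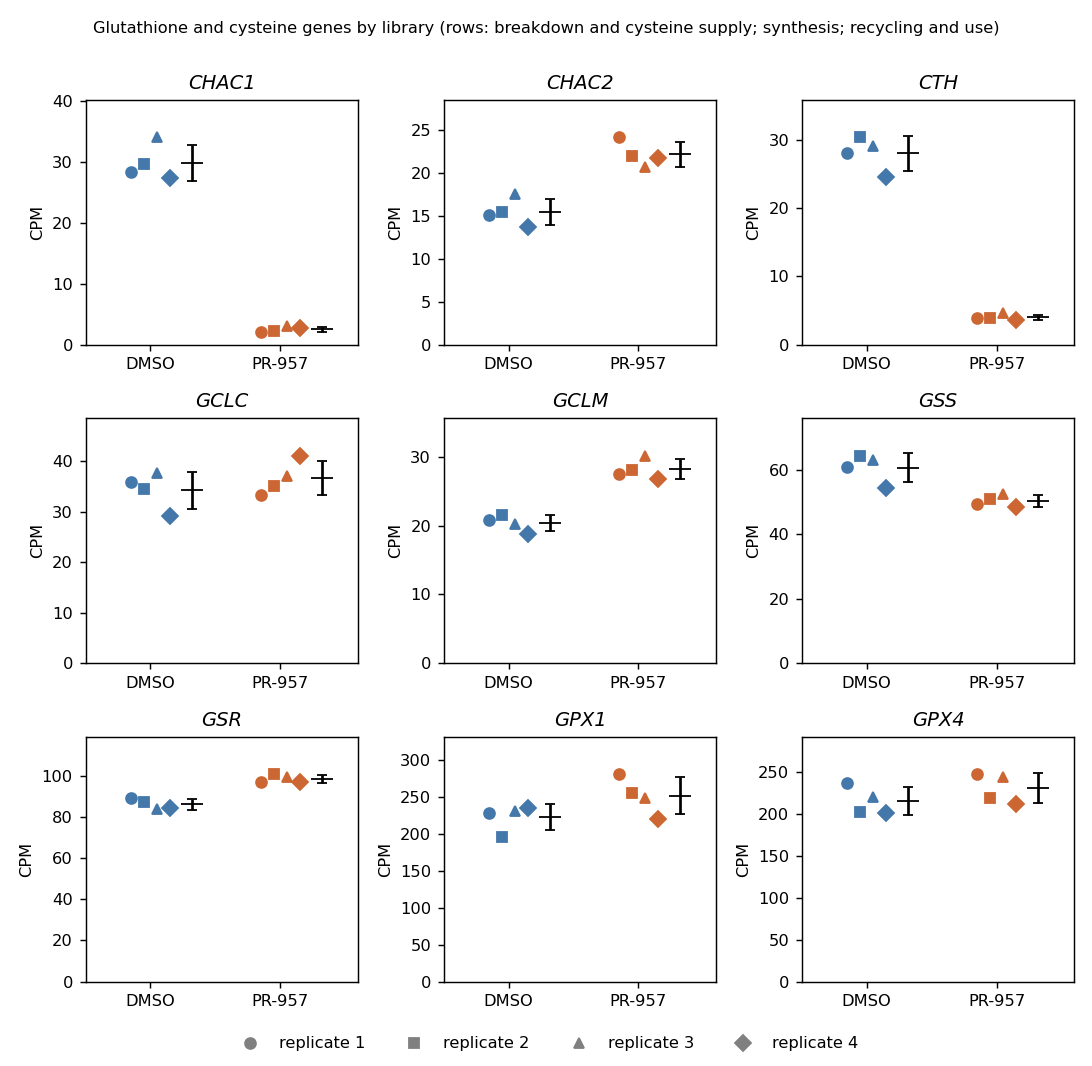
CPM of each gene in the 4 DMSO and 4 PR-957 libraries, with marker shapes for replicates, and the mean with SD as bars to the right of each group. CHAC1 and CTH are under 5 CPM in every PR-957 library, while GCLC, GPX1 and GPX4 overlap between the groups.

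The promoters of CHAC1 and CTH are shown first, since these genes had the largest changes, beside that of GCLM, the member of the synthesis group that rose. Each window holds 250 bases before and 50 bases after a RefSeq start site (GRCh38.p14) and is written in the direction of the gene. Letters in capitals mark matches, on either strand, to the C/EBP-ATF response element TGATGNAA, to the antioxidant response element core TGACNNNGC or to the cyclic AMP response element core TGACGT. CHAC1 lies at chr15:40953221-40953520 on the plus strand, CTH at chr1:70411018-70411317 on the plus strand and GCLM at chr1:93909381-93909680 on the minus strand. The gene models used for counting extend further upstream for CHAC1, from 40942137, and for GCLM, from 93910370. Their counts can thus include transcripts that start outside these windows.
CHAC1: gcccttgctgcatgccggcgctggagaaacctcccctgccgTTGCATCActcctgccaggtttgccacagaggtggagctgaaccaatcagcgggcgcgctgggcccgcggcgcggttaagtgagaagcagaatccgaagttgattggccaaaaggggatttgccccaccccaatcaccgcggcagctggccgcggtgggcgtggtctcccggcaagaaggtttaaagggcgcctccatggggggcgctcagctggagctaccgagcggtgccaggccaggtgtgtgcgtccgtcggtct
CTH: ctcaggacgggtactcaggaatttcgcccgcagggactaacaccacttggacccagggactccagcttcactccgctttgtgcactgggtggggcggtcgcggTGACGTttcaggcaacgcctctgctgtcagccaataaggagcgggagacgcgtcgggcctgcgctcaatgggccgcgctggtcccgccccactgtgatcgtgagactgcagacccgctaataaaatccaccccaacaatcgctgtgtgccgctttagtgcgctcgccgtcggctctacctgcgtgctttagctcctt
GCLM: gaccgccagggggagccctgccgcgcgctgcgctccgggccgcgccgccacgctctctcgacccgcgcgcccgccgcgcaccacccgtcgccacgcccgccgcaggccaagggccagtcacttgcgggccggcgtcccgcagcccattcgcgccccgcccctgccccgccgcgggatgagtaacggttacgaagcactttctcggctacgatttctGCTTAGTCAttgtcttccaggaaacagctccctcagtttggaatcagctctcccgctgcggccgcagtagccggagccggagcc

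In the CHAC1 window the C/EBP-ATF element, the kind of site that ATF4 is known to bind, matched on the opposite strand as TTGCATCA, from 209 to 202 bases upstream of the start. Of 35116 such windows over all genes, 3.62% held this motif. The antioxidant element, the kind of site that NRF2 is known to bind, matched in the GCLM window on the opposite strand from 34 to 26 bases upstream, and 13.3% of all windows held it. The core TGACGT matched in the CTH window from 147 to 142 bases upstream, and 7.98% of all windows held it. It also matched in 2 of 3 GPX4 windows, which overlap and share the same site. The windows of CHAC2, GCLC and GPX1 held none of the 3 motifs. Windows were available for 7 of the 9 members, and GSS and GSR had none, so they were not searched. A match is a description of the letters only.

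CHAC1 (chromosome 15, 40942137 to 40956518 in the hg38 gene model of the table) was the member with the largest change. Its levels were 28.25, 29.7, 34.0 and 27.3 CPM in DMSO replicates 1 to 4 and 2.12, 2.25, 3.01 and 2.76 CPM in PR-957 replicates 1 to 4. No library of either group came near the other group. The mean fell from 29.8 ± 2.98 to 2.53 ± 0.423 CPM (SD, n = 4), or -3.55 as log2 fold change (SE 0.12, adjusted p = 2.13e-14, edgeR), which ranked 15 among the largest decreases of all genes tested. Behind these values stood 2173 counts over the control and 196 over the treated libraries.

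CHAC2 (chromosome 2, 53767783 to 53775196) encodes the second glutathione-cleaving enzyme of the family, and it moved the other way. DMSO replicates 1 to 4 had 15.2, 15.4, 17.5 and 13.8 CPM and PR-957 replicates 1 to 4 had 24.2, 22.0, 20.7 and 21.8 CPM. The groups did not overlap, as was so for 42.5% of all genes tested. CHAC2 rose from 15.5 ± 1.55 to 22.2 ± 1.45 CPM (SD, n = 4), or 0.52 as log2 fold change (SE 0.09, adjusted p = 8.83e-05, edgeR).

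CTH (chromosome 1, 70411218 to 70441949) followed CHAC1 in direction. It had 28.1, 30.4, 29.0 and 24.5 CPM in DMSO replicates 1 to 4 and 3.84, 3.86, 4.57 and 3.65 CPM in PR-957 replicates 1 to 4. The 4 treated libraries lay close together, far under every DMSO library. CTH fell from 28.0 ± 2.52 to 3.98 ± 0.400 CPM (SD, n = 4), or -2.80 as log2 fold change (SE 0.11, adjusted p = 9.7e-14, edgeR). Only 43 genes, or 0.326% of those tested, had an absolute change at least as large.

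Among the synthesis genes, the subunits of glutamate-cysteine ligase differed. GCLM (chromosome 1, 93885199 to 93910370) had 20.9, 21.6, 20.3 and 18.7 CPM in DMSO replicates 1 to 4 and 27.6, 28.1, 30.2 and 26.8 CPM in PR-957 replicates 1 to 4, with no overlap. It rose from 20.4 ± 1.22 to 28.2 ± 1.46 CPM (SD, n = 4), or 0.47 as log2 fold change (SE 0.08, adjusted p = 5.11e-05, edgeR). GCLC (chromosome 6, 53497341 to 53545101) had 35.8, 34.5, 37.7 and 29.2 CPM in DMSO replicates 1 to 4 and 33.3, 35.2, 37.2 and 41.2 CPM in PR-957 replicates 1 to 4. These values overlapped broadly, with the lowest and the highest both in replicate 4. For GCLC the log2 fold change was 0.10 (SE 0.08, adjusted p = 0.328, edgeR), and its sign turned in replicates 1 and 2 alone (-0.036).

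GSS (chromosome 20, 34928432 to 34956027) was the single synthesis gene that fell. DMSO replicates 1 to 4 had 60.9, 64.5, 63.1 and 54.5 CPM and PR-957 replicates 1 to 4 had 49.4, 51.05, 52.5 and 48.6 CPM. The groups did not overlap, although DMSO replicate 4 stood near the treated libraries. The log2 fold change was -0.27 (SE 0.06, adjusted p = 0.00177, edgeR), and in replicates 3 and 4 only it was -0.22 with an adjusted p of 0.0776. On the opposite strand 4.62% of its exon bases are shared with MYH7B, which had 41 counts over the control and 13 over the treated libraries.

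GSR (chromosome 8, 30678061 to 30727999), which recycles oxidized glutathione, rose slightly. It had 89.4, 87.5, 83.8 and 84.6 CPM in DMSO replicates 1 to 4 and 96.9, 101, 99.6 and 96.9 CPM in PR-957 replicates 1 to 4. All treated libraries were above all DMSO libraries, and the log2 fold change was 0.19 (SE 0.05, adjusted p = 0.00488, edgeR). In replicates 1 and 2 only the value was 0.16 with an adjusted p of 0.0589.

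GPX1 (chromosome 3, 49357171 to 49358600) encodes the abundant cytosolic glutathione peroxidase. Its levels were 228, 196, 231 and 234.5 CPM in DMSO replicates 1 to 4 and 281, 255.5, 249.2 and 220.2 CPM in PR-957 replicates 1 to 4. The groups overlapped, since PR-957 replicate 4 was below 3 of the 4 DMSO libraries. The log2 fold change was 0.18 (SE 0.07, adjusted p = 0.0509, edgeR), in a range of adjusted p from 6.85e-05 to 0.948 over 19 alternatives, of which 9 passed the threshold. Without PR-957 replicate 4 the adjusted p was 0.0085 and without DMSO replicate 4 it was 0.0367. Replicates 1 and 2 alone gave a log2 fold change of 0.34 and replicates 3 and 4 alone 0.0082, and the difference between these was not tested.

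GPX4 (chromosome 19, 1103994 to 1106779) encodes the peroxidase that reduces lipid peroxides in membranes. It had 237, 203, 221 and 202 CPM in DMSO replicates 1 to 4 and 248, 219, 245 and 212 CPM in PR-957 replicates 1 to 4. The groups overlapped, and the log2 fold change was 0.10 (SE 0.06, adjusted p = 0.220, edgeR). With library totals alone, that is without TMM factors, GPX4 passed the threshold at 0.18 on the log2 scale (adjusted p = 0.0164).

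**Figure D2:**
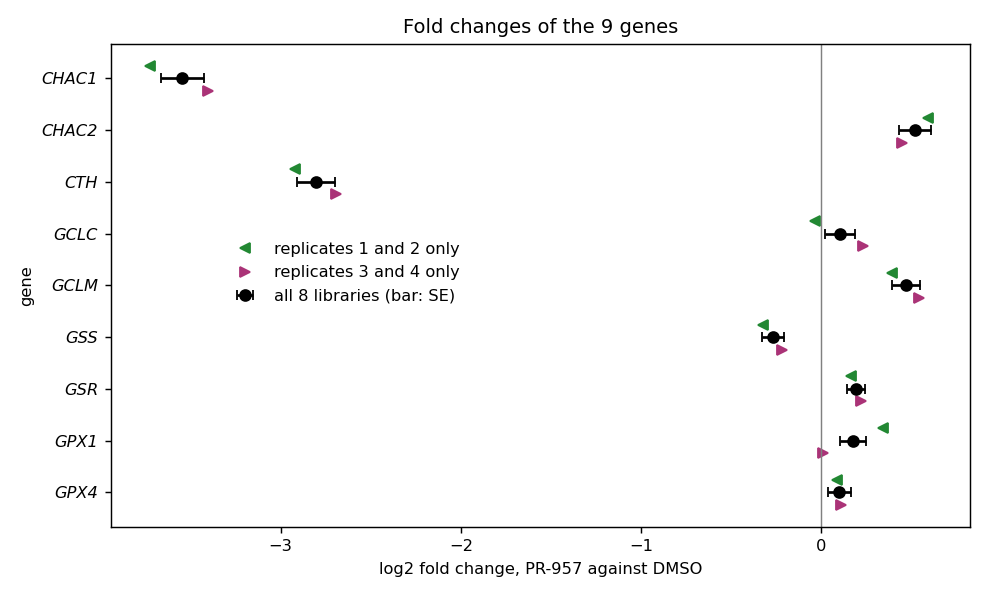
Log2 fold change of each gene, PR-957 against DMSO, with SE for all 8 libraries (black) and the values in replicates 1 and 2 only (green) and replicates 3 and 4 only (purple). CHAC1 at -3.55 and CTH at -2.80 stand apart from the remaining genes, which lie between -0.27 and 0.52 with all libraries.

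To test whether genes changed unequally, log2 ratios of CPM within a library were compared for 7 gene pairs, which removes library scaling. With 4 libraries per group the smallest two-sided p of an exact permutation test is 0.0286, and 5 of the 7 pairs reached it (adjusted p = 0.04 over the pairs). The log2 ratio of CHAC1 to CHAC2 was 0.89, 0.94, 0.96 and 0.98 in DMSO replicates 1 to 4 and -3.45, -3.23, -2.74 and -2.93 in PR-957 replicates 1 to 4. The ratio thus changed by -4.03 on the log2 scale, or 16.4-fold (exact permutation p = 0.0286). Its sign compares counts that are not brought to gene length. Which of these genes had the higher level in DMSO libraries depended on the length used. By the gene length in the table, CHAC2 was already above CHAC1 in DMSO libraries (11.6 against 4.90 CPM per kilobase). Relative to GCLC, CHAC1 changed by -3.61 and CTH by -2.88 on the log2 scale (exact permutation p = 0.0286 each). Each of the 7 ratios combines fold changes of single genes, so its p-value is no evidence separate from them. The pairs were chosen with earlier results of these data known.

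The balance of the ligase subunits also shifted. The log2 ratio of GCLC to GCLM was 0.78, 0.67, 0.89 and 0.64 in DMSO replicates 1 to 4 and 0.27, 0.32, 0.30 and 0.62 in PR-957 replicates 1 to 4, a change of -0.37 (exact permutation p = 0.0286). Leaving out DMSO replicate 1, 2, 3 or 4 gave an exact p of 0.0571 each time. PR-957 replicate 4 lay next to the lowest DMSO library and apart from the other treated ones. By contrast the ratio of GPX1 to GPX4 changed by 0.08 (exact permutation p = 0.371) and that of GSR to TXNRD1, the reductase of the thioredoxin system, by 0.04 (exact permutation p = 0.514). Both changes were smaller than the SD between DMSO libraries, which was 0.128 for GPX1 to GPX4 and 0.124 for GSR to TXNRD1. Between PR-957 libraries the SD was 0.097 and 0.037, the latter slightly under the change of that ratio.

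**Figure D3:**
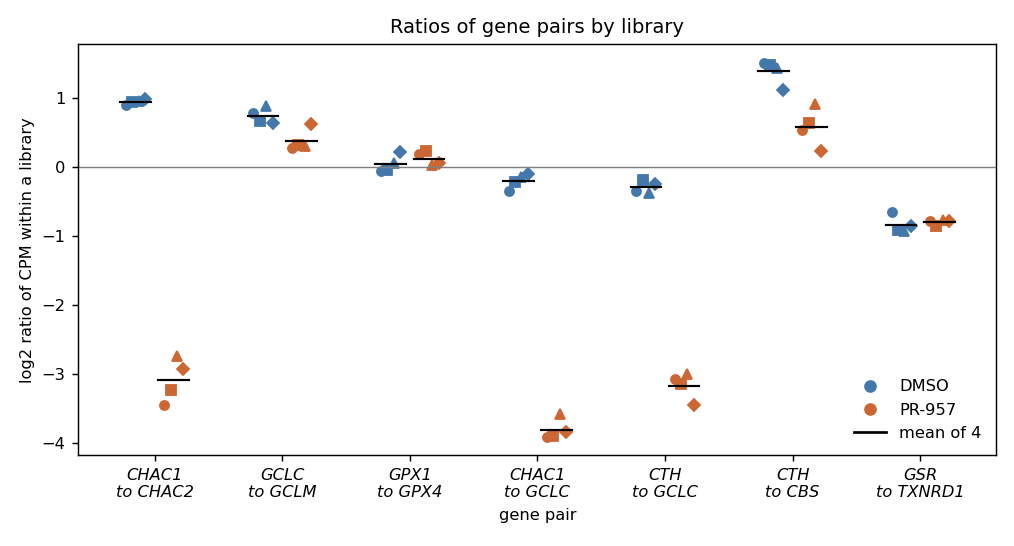
Log2 ratio of CPM of 2 genes within each library, for 7 gene pairs in DMSO and PR-957 libraries, with the mean of 4 as a bar and marker shapes for replicates as in the plot of CPM by library. The ratio of CHAC1 to CHAC2 goes from between 0.89 and 0.98 to between -3.45 and -2.74, while those of GPX1 to GPX4 and GSR to TXNRD1 overlap between groups.

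Levels were compared between genes only per length, as CPM per kilobase of the gene length in the table. In DMSO libraries the order was GPX4 at 187 ± 14.6, GPX1 at 155.5 ± 12.3, GSR at 27.0 ± 0.819, GSS at 20.3 ± 1.49, CHAC2 at 11.6 ± 1.16, GCLC at 8.98 ± 0.955, CTH at 5.80 ± 0.523, CHAC1 at 4.90 ± 0.491 and GCLM at 3.19 ± 0.190 CPM per kilobase (SD, n = 4). Only the neighbours CTH and CHAC1 overlapped between libraries. In PR-957 libraries CHAC1 was last at 0.416 ± 0.0696 and CTH next to last at 0.826 ± 0.0830 CPM per kilobase, and the overlapping neighbours were GPX4 with GPX1 and GSS with CHAC2. The peroxidases thus stood above the remaining 7 genes in both groups.

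These levels depend on the gene length, because the table's model of CHAC1 spans 6081 exon bases and that of CTH 4822, while their GENCODE v44 canonical transcripts span 1520 and 2090. With canonical lengths CHAC1 was at 19.6 and CTH at 13.4 CPM per kilobase in DMSO libraries, above CHAC2 at 11.8 and GCLC at 9.06. The order of these genes in DMSO thus turned, as did that of CHAC1 and CTH. GSS, at 31.8, also stood above GSR, at 28.45, in DMSO libraries. Among treated libraries GPX1, at 280 ± 27.8, was above GPX4, at 271 ± 21.1 CPM per kilobase (SD, n = 4). In PR-957 libraries CHAC2, at 16.9, was above CHAC1, at 1.67, and CTH, at 1.91 CPM per kilobase, with canonical lengths as well. Which transcripts were present was not measured. Fold changes within a gene do not depend on its length.

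**Figure D4:**
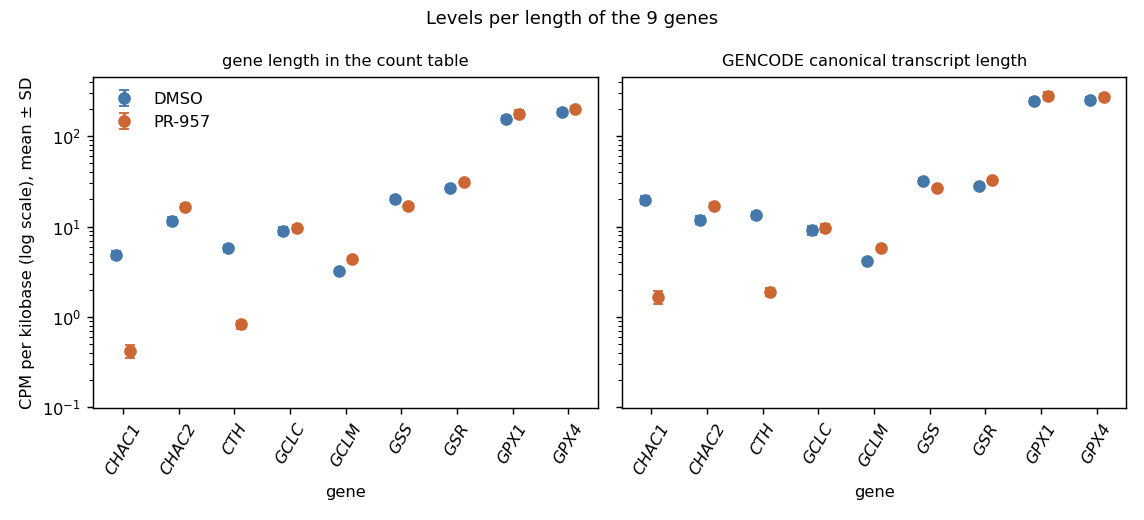
CPM per kilobase (log scale), mean ± SD of 4 libraries, for each gene in DMSO (blue) and PR-957 (orange) libraries, with the gene length in the table on the left and the length of the GENCODE canonical transcript on the right. GPX1 and GPX4 are highest on both sides, and CHAC1 in DMSO libraries moves from 4.90 on the left to 19.6 on the right.

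The wider pathway was described with 12 lists holding 129 genes, of which 110 were tested. Over all lists 28 genes were higher, 33 lower and 49 not called, or 33 higher and 37 lower at an unadjusted p under 0.05. The counts in each list stand beside 23.1% higher and 23.5% lower over all genes tested, and those over all lists were near these shares. The list of cysteine supply and the methionine cycle had no higher gene and 6 lower of 9 tested, with a median log2 fold change of -0.32. CBS, which makes the cystathionine that CTH cleaves, fell from 10.6 ± 0.618 to 2.63 ± 0.322 CPM (SD, n = 4), or -2.01 as log2 fold change (adjusted p = 1.05e-09). CBS has a near-identical copy, CBSL, with 60 counts over the control and 21 over the treated libraries, so its level is uncertain. CTH changed by -0.81 relative to CBS (exact permutation p = 0.0286, or 0.0571 without DMSO replicate 1 or 2). The cystine transporter SLC7A11, with its partner SLC3A2, fell too, with log2 fold changes of -1.76 (adjusted p = 8.75e-13) and -1.40 (adjusted p = 2.1e-12). SLC7A11, SLC3A2 and the next genes were picked from their lists after their values were seen. MTR and AHCY of the methionine cycle had smaller decreases, of -0.43 (adjusted p = 3.53e-06) and -0.32 (adjusted p = 0.000312), while MAT2A had -0.12 (adjusted p = 0.138). Without DMSO replicate 4 MAT2A was called lower, at -0.18 (adjusted p = 0.00803).

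Enzymes that use cysteine outside glutathione were mixed, with 4 higher, 3 lower and 4 not called of 11 tested. TST, a mitochondrial sulfurtransferase, rose by 0.75 (adjusted p = 7.86e-07) and GOT1, an aspartate aminotransferase, fell by 0.87 on the log2 scale (adjusted p = 2.83e-09). NFS1, which takes sulfur from cysteine for iron-sulfur clusters, rose by 0.51 (adjusted p = 4.64e-06).

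In the list of the gamma-glutamyl cycle and peptidases, 1 gene was higher and 2 lower of 9 tested (4 lower without DMSO replicate 2). OPLAH, the oxoprolinase that returns glutamate from the product of CHAC1 and CHAC2, fell from 32.4 ± 2.35 to 14.2 ± 1.26 CPM (SD, n = 4), or -1.19 as log2 fold change (SE 0.09, adjusted p = 1.62e-09). GGCT, which makes oxoproline from gamma-glutamyl amino acids, was not called, at -0.01 on the log2 scale (adjusted p = 0.868). GGT1, which cleaves glutathione outside the cell, rose by 0.25 (adjusted p = 0.0348). That call was lost in 7 of 19 alternatives, including when DMSO replicate 2 (0.0749), DMSO replicate 3 (0.118), PR-957 replicate 1 (0.174) or PR-957 replicate 2 (0.0663) was left out, and adjusted p values ran from 0.00699 to 0.462. ANPEP, a membrane aminopeptidase, had 15.4, 14.8, 28.6 and 28.3 CPM in DMSO replicates 1 to 4 and 31.6, 26.8, 51.3 and 60.4 CPM in PR-957 replicates 1 to 4. Replicates 3 and 4 were higher than 1 and 2 in both groups, and the groups overlapped. The log2 fold change of ANPEP was 0.96 (adjusted p = 0.0797) over all libraries, 0.95 within replicates 1 and 2 (adjusted p = 8.31e-10) and 0.97 within replicates 3 and 4 (adjusted p = 2.53e-06). It was called in 6 of 19 alternatives, among them DESeq2 (0.0267) and limma-voom (0.00775), and was named after its values were seen.

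Genes that use glutathione were read next. Of 12 tested glutathione transferases, 4 were higher and none lower, beside 23.1% higher and 23.5% lower over all genes tested, and none was lower at an unadjusted p under 0.05. DESeq2 and limma-voom gave no lower transferase either, while replicates 1 and 2 alone gave 1, and replicates 3 and 4 alone gave 2 higher. GSTP1 rose from 151.5 ± 23.9 to 264 ± 24.1 CPM (SD, n = 4), or 0.80 as log2 fold change (adjusted p = 0.00015). GSTM1 had the largest log2 fold change, 0.93 (adjusted p = 0.0148), with 27 to 69 counts per DMSO library and 56 to 114 per PR-957 library. It belongs to a family of near-identical genes that can share reads, so its value is uncertain. MGST1 and MGST2, membrane-bound members, rose by 0.25 (adjusted p = 0.00119) and 0.27 (adjusted p = 0.00252), and neither was called with replicates 3 and 4 alone (0.0911 and 0.064).

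Of 10 tested enzymes in the list of other glutathione-using enzymes, 3 were higher and 2 lower. GLO1, which detoxifies methylglyoxal, rose by 0.46 (adjusted p = 7.17e-07) and GPX7, a peroxidase of the endoplasmic reticulum, fell by 0.48 (adjusted p = 0.00112). The call of GPX7 was lost with replicates 3 and 4 alone (0.0617), where adjusted p values over 19 alternatives began at 5.65e-05. Of 5 transport genes, 3 were higher and 1 lower. ABCC5, an exporter of organic anions, rose by 0.78 (adjusted p = 1.27e-06). SLC25A39, the importer of glutathione into mitochondria, rose by 0.39 (adjusted p = 0.000269), and its homolog SLC25A40 fell by 0.27 (adjusted p = 0.00333). The call of SLC25A40 was lost with replicates 3 and 4 alone (0.191), and the smallest adjusted p over the alternatives was 0.00057.

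The thioredoxin and peroxiredoxin system, which reduces disulfides and peroxides beside glutathione, had 4 higher and 2 lower of 12 tested genes and a median of 0.01. PRDX4, the peroxiredoxin of the endoplasmic reticulum, rose from 35.9 ± 3.19 to 58.3 ± 2.42 CPM (SD, n = 4), or 0.70 as log2 fold change (adjusted p = 1.07e-07). TXNIP, an inhibitor of thioredoxin, fell by 1.43 (SE 0.12, adjusted p = 1.34e-05).

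**Figure D5:**
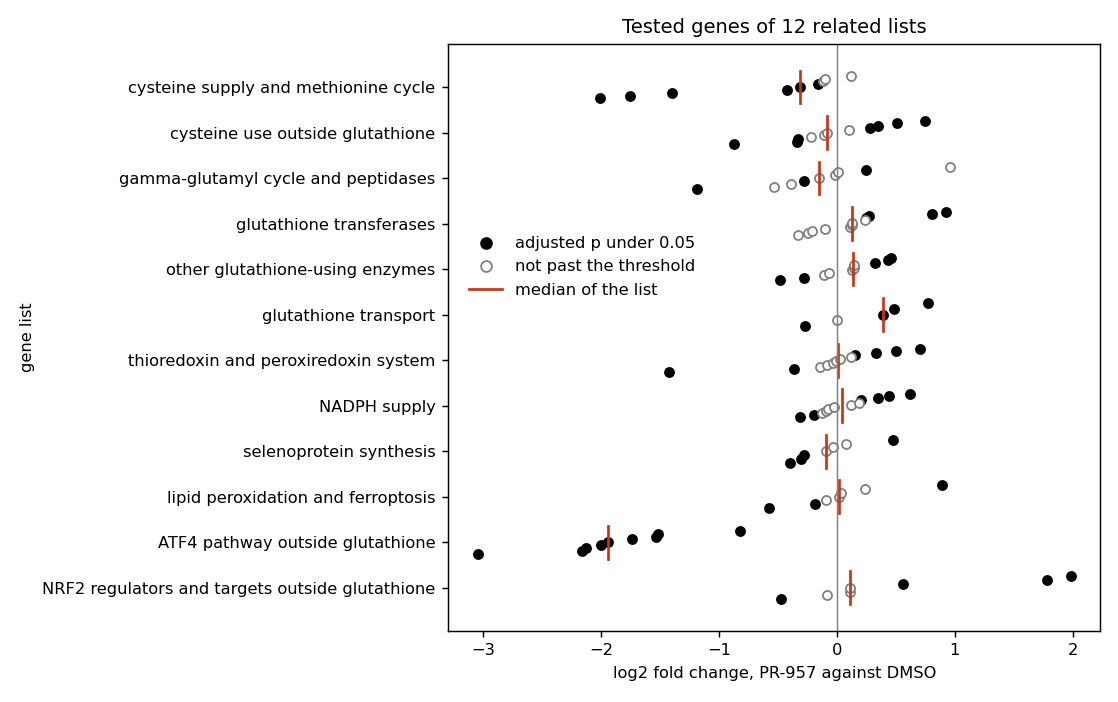
Log2 fold change, PR-957 against DMSO, of each tested gene in 12 related lists, with filled points for an adjusted p under 0.05, open points for the rest and a bar at the median of each list. Every tested gene of the ATF4 list lies to the left of 0, and the lists of glutathione use lie on both sides.

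Genes of 2 transcription pathways known to act on these enzymes were read beside them. ATF4 is the transcription factor of the integrated stress response and a known activator of CHAC1 and CTH. All 9 tested genes of the ATF4 list were lower, with a median log2 fold change of -1.94, beside 23.5% lower over all genes tested. The list was chosen with earlier results of these data known, so the count is not independent of them. Whether ATF4 had a part in the decreases of CHAC1 and CTH was not tested. ATF4 itself fell from 963 ± 62.7 to 545 ± 18.9 CPM (SD, n = 4), or -0.82 as log2 fold change (adjusted p = 1.42e-09). DDIT3 and TRIB3, which it induces, had log2 fold changes of -2.13 (adjusted p = 6.38e-14) and -3.05 (adjusted p = 1.85e-16), both decreases.

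NRF2, encoded by NFE2L2, is a known activator of GCLM and GCLC, KEAP1 marks it for degradation and BACH1 competes for its sites. In this list 3 genes were higher and 1 lower of 7 tested. Neither NFE2L2, at -0.08 on the log2 scale (adjusted p = 0.246), nor KEAP1, at 0.11 (adjusted p = 0.126), passed the threshold, but KEAP1 did with library totals alone (0.00601). BACH1 fell by 0.47 (SE 0.10, adjusted p = 0.00069). Among the members it is known to activate, GCLM was called higher and GCLC was not called. Targets placed in other lists were not counted here, and whether NRF2 had a part in any change was not tested. Of the targets in this list, NQO1 rose by 0.56 (adjusted p = 7.67e-06). OSGIN1 had the largest log2 fold change, 1.98 (adjusted p = 6.83e-05), on 28 counts over the control and 116 over the treated libraries, and HMOX1 had 1.78 (adjusted p = 0.000381) on 43 and 153 counts.

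Genes with patterns most like those of CHAC1 and CHAC2 were found by the root mean square difference of centred log2 CPM over the 8 libraries, most of which reflects the treatment difference. For CHAC1 these were LINC02806 (0.21), TRIB3 (0.27) and GDF15 (0.32). LINC02806 is a noncoding RNA gene, and GDF15 encodes a secreted stress factor. They had log2 fold changes of -3.64, -3.05 and -3.35, and LINC02806 and GDF15 rested on 43 and 32 counts over the treated libraries. For CHAC2 they included TOMM5 (0.04) and GRWD1 (0.05), each with a log2 fold change of 0.51. TOMM5 encodes a part of the mitochondrial import pore and GRWD1 a ribosome assembly factor. In bulk libraries fewer cells with a transcript and less of it per cell cannot be told apart.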

How the data were processed

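Of the deposited files, the count table was used. The authors deposited it as unnormalized counts of fragments for each gene. Per the labels and the file headers, reads were trimmed with Trimmomatic 0.39, aligned to hg38 with STAR 2.7.10a and counted with featureCounts 2.0.1 on the reverse strand, with both ends mapped, against NCBI RefSeq models. The header names 16 libraries, and 8 of them were not analysed here. Rows without values (6 of 38557) were removed. A second file held only the authors' own comparison from DESeq2 and was not used. Groups and replicate numbers came from the sample titles.

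PR-957 was compared with DMSO with edgeR 4.0.16 in R 4.3.3 (filterByExpr, TMM factors, robust quasi-likelihood fit, two-sided), over all 8 libraries in 1 fit with no covariate and Benjamini-Hochberg adjustment over 13179 genes. Fold changes are PR-957 over DMSO, and SE is the absolute log2 fold change over the root of F. Ratios used log2 CPM with a prior count of 2 and two-sided exact permutation tests over every assignment of 4 and 4. The fit was tested on simulated data. The lowest chi-square per gene between replicates was 3.32, above the value near 1 of sampling noise, so no library was a duplicate. The members, gene pairs, gene lists and alternatives were chosen with earlier results of these data known. The rule for named genes took the 9 members, ATF4, DDIT3, NFE2L2, KEAP1 and BACH1, the largest called increase and decrease of each list, and the 3 genes with the pattern nearest to the members with the largest called decrease and increase. It gave 39 genes, of which 1 is not reported here, and any other was named after its values were seen. Alternatives were DESeq2 1.42.0, limma-voom (limma 3.58.1), other scalings and filters, the replicate number as a block, pairs of replicates and leaving out each library.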

Additional observations from a re-analysis of the deposited data

Results flagged for a closer look

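The log2 ratio of GCLC to GCLM in PR-957 replicate 4 was 0.62, while the other 3 treated libraries lay between 0.27 and 0.32. It was flagged because its gap to the nearest library took 0.857 of the range of the group, above Dixon's critical value for 4 values. In all 32 groups of 4 values were checked and this was the 1 flag, where chance gives about 1 in 20.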

How the results depend on the processing

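CHAC1, CHAC2, CTH and GCLM kept their direction and their call in all 19 alternatives. Their log2 fold changes ran from -3.73 to -3.40, 0.45 to 0.60, -2.92 to -2.69 and 0.39 to 0.55. GSS was not called in replicates 3 and 4 only (-0.22), and GSR not in replicates 1 and 2 only (0.16). GCLC changed sign in replicates 1 and 2 only (-0.036). GPX1 passed the threshold with library totals alone (0.25), with upper-quartile scaling (0.19), with at least 1 CPM required in 4 libraries (0.18), without any filter (0.17), with replicates 1 and 2 against 3 and 4 as a term (0.18) and in replicates 1 and 2 only (0.34). Leaving out single libraries moved GPX1 between 0.11 and 0.23. GPX4 passed with library totals alone (0.18), where 5 members were higher. The causes were not tested. Library totals alone shifted the median of all genes by 0.08. The change in the ratio of CHAC1 to CHAC2 was -4.26 with replicates 1 and 2 alone and -3.81 with the other pair, and that of GPX1 to GPX4 was 0.26 and -0.10. Leaving out single libraries gave changes from -0.45 to -0.32 for GCLC to GCLM, past the threshold without any 1 treated library but not without any 1 DMSO library (exact permutation p = 0.0571), and from -0.92 to -0.69 for CTH to CBS, which missed it without DMSO replicate 1 or 2. The ratios of CHAC1 to CHAC2, CHAC1 to GCLC and CTH to GCLC passed it each time.

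With the replicate number as a block, GPX1 passed the threshold (log2 fold change 0.175, adjusted p = 0.0406), no other member changed its call, ANPEP was called higher (0.96, adjusted p = 2.99e-11), and 6913 genes were called in place of 6143. Deviations of same-numbered libraries correlated at 0.15, 0.21, 0.0985 and 0.20, and each DMSO replicate correlated best with the PR-957 replicate of its own number. In the other direction PR-957 replicate 3 was the exception, as it correlated better with DMSO replicate 4 (0.11). Replicates 1 and 2 of either group correlated negatively with replicates 3 and 4 of the other group, from -0.19 to -0.04. Deviations from a group mean cancel out within the group, so positive correlations force negative ones, which add no separate evidence. By the positive correlations the libraries shared some structure by replicate number, which the main fit did not model. Whether the numbers mark paired cultures was not tested.

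Canonical transcript lengths moved the levels in DMSO and PR-957 libraries, given in this order as CPM per kilobase, to 19.6 and 1.67 for CHAC1, 13.4 and 1.91 for CTH, 4.17 and 5.77 for GCLM, 31.8 and 26.4 for GSS, 28.4 and 32.5 for GSR, 247 and 280 for GPX1 and 253 and 271 for GPX4. Across lists, the median of cysteine use outside glutathione changed from -0.08 to 0.0064 with DESeq2 and to 0.0046 without any filter, where more genes were tested. The median of NADPH supply changed from 0.04 to -0.02 in replicates 3 and 4 only, and leaving out single libraries moved it between -0.0371 and 0.0612. The same moved the median of the thioredoxin list between -0.0325 and 0.0463 and that of lipid peroxidation and ferroptosis between -0.0318 and 0.0457. GGCT, near 0 throughout, changed sign with library totals alone (0.0657) and in replicates 3 and 4 only (0.0335), and leaving out single libraries moved it between -0.0501 and 0.0266. Among tested genes named, counts were lowest for OSGIN1 and HMOX1 in DMSO libraries and for GDF15 and LINC02806 in PR-957 libraries.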

Other observations

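The remaining lists held enzymes next to the glutathione cycle. NADPH supply, on which GSR depends, had 4 higher and 2 lower of 12 tested genes (1 lower without DMSO replicate 2). TALDO1, a transaldolase of the pentose phosphate pathway, rose from 220.5 ± 15.3 to 338 ± 29.1 CPM (SD, n = 4), or 0.62 as log2 fold change (adjusted p = 3.48e-07, edgeR). PGLS, of the same pathway, fell by 0.31 (adjusted p = 0.000471).

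Selenoprotein synthesis, which GPX1 and GPX4 need for their selenocysteine, had 1 higher and 3 lower of 7 tested genes. SECISBP2, which binds the selenocysteine element of mRNAs, fell by 0.40 (SE 0.06, adjusted p = 3.59e-05), and LRP8, a receptor for selenoprotein P, rose by 0.48 (adjusted p = 2.21e-05). In the list of lipid peroxidation and ferroptosis, 1 gene was higher and 2 lower of 7 tested (1 lower without DMSO replicate 4 or without PR-957 replicate 1). TFRC, the transferrin receptor, rose from 101 ± 8.25 to 187 ± 11.8 CPM (SD, n = 4), or 0.89 as log2 fold change (adjusted p = 1.57e-09). AIFM2, which protects membrane lipids beside GPX4, fell by 0.58 (adjusted p = 0.000746), but was not called with replicates 3 and 4 alone (0.131), and the smallest adjusted p over the alternatives was 2.8e-06.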
